A study of Mus musculus with 2 samples.

Results

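A set of 9 genes of interstrand crosslink repair and translesion synthesis was followed in mouse small cell lung cancer cells, a fast-growing neuroendocrine lung tumour, from vehicle-treated and cisplatin-treated animals. They were taken by symbol from 28692 gene rows: Brca1, Brca2, Fanca, Fancd2, Fanci, Ercc1, Xpa, Rev3l and Polh. All 9 were found, each in 1 row, and all 9 had at least 50 unique molecular identifiers (UMIs) over both libraries. The mice carried CGRPCreER/+, which gives a tamoxifen-inducible Cre in CGRP-expressing neuroendocrine cells, with floxed tumour suppressor alleles, Rbf/f and P53f/f among them, and the Rosa26mTmG reporter, on a mixed strain background. Both groups shared these alleles, and live GFP-positive cells of dissociated lung tumours were sorted for 10x Genomics capture. The vehicle group received saline and the cisplatin group 5 mg per kg cisplatin every 4 days for 2 weeks. The library protocol also names etoposide for the treated tumours, so it cannot be settled from the labels whether etoposide was given. For each group 5000 cells were loaded, and the files hold 3726 vehicle and 4254 cisplatin barcodes. There was 1 library per group, so no test between groups was possible; the sources used here do not state how many animals, or of what age, stand behind a library.

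Cisplatin binds DNA bases and links neighbouring bases of a strand or, more rarely, the opposite strands. Links within a strand are removed by nucleotide excision repair, in which the XPA protein verifies the damage and the ERCC1 nuclease partner cuts beside it. A link between strands stops the replication fork: the Fanconi core complex, of which FANCA is a subunit, then attaches ubiquitin to the FANCD2 and FANCI pair, nucleases unhook the link, a translesion polymerase copies past the remnant and BRCA1 and BRCA2 direct homologous recombination at the break. REV3L is the catalytic subunit of polymerase zeta, which extends past damaged bases, and Polh encodes polymerase eta, which copies past cisplatin links within a strand. Fanconi and recombination genes are known as targets of the E2F factors that drive the cell cycle, factors that are held back by the retinoblastoma protein, whose gene is among the floxed ones here.

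The sequences just before the transcription start are shown for 4 members, because Brca1, Brca2 and Fanca differed with cell cycle state while Xpa did not share that pattern. A RefSeq promoter (GRCm38.p6) was found for 7 of the 9 members, all but Fancd2 and Rev3l. The 250 bases before each start were searched on both strands for E2F-type letters, TTTGGCGC, TTTCGCGC or TTTCCCGC, and for the cell cycle homology region, TTTGAA. None of the E2F-type letters holds TTTGAA in full, although TTTGGCGC begins with the same TTTG. Of the 7, 1 held an E2F match (Brca2) and 0 held TTTGAA, beside 1.53% and 16.0% of 32851 promoters of that length. The match, TTTCCCGC on the opposite strand, is in capitals in the 180 bases of Brca2, and the sequences run 5′ to 3′ on the strand of the gene.
Brca1 (chr11:101551956-101552135, minus strand): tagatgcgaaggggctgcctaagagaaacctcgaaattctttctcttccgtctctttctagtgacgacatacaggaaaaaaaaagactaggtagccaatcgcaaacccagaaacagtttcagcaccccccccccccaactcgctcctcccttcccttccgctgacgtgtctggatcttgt
Brca2 (chr5:150522441-150522620, plus strand): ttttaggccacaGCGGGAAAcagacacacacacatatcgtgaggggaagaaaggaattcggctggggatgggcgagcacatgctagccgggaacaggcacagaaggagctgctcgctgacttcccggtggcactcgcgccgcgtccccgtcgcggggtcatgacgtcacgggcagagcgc
Fanca (chr8:123318577-123318756, minus strand): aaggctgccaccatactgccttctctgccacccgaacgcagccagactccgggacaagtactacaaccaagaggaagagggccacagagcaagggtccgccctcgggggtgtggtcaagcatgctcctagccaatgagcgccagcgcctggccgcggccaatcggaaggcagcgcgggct
Xpa (chr4:46196312-46196491, minus strand): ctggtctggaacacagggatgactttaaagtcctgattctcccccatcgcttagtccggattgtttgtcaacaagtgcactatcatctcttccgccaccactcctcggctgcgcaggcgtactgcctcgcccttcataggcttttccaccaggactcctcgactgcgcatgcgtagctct
A match describes letters only, and its absence says only that these letters are not in the window.

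The tumour barcodes numbered 3653 in vehicle, with 32089647 UMIs and a median of 8205 per barcode, and 4212 in cisplatin, with 28546138 UMIs and a median of 5939. Across the libraries 23 barcode sequences were shared. Of 10 neuroendocrine markers 8 were at 100 CPM (UMIs of a gene per 1000000 UMIs) or more in both libraries. Syp was at 81.1 and 101 CPM, and Calca, whose product is CGRP, at 0.467 and 0.385 CPM. Markers of other cell types that differed in sum were neutrophil (87.2 and 1.68 CPM over 4 genes), alveolar (45.3 and 181 CPM over 5 genes) and fibroblast (43.2 and 20.6 CPM over 5 genes, of which Dcn gave 43.0 and 19.8). Club markers had a larger but similar sum, 458 and 474 CPM over 3 genes. Of these Scgb1a1 gave 403 and 458 CPM and Scgb3a2 54.3 and 14.0 CPM. Ciliated markers summed to 28.1 and 30.0 CPM over 4 genes, and T cell, B cell, macrophage and endothelial sums were under 20 CPM in both. Within the T cell list Nkg7 was at 0 in both libraries, and Adgre1 likewise in the macrophage list; their part in the results was not tested. Barcodes with delta-like endocrine markers, such as Hhex and Isl1, numbered 17 in vehicle and 816 in cisplatin, so results are also given without them.

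Levels below are UMIs summed over barcodes and scaled to CPM of the same barcodes, and brackets hold exact Poisson 95% intervals, which cover counting error only. A log2 ratio is cisplatin over vehicle after adding 1 CPM, and a gene counts as higher or lower at a 1.5-fold difference in CPM.

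Brca2 and Rev3l were lower in the cisplatin library, Fanca and Polh were lower at smaller counts, and the other 5 members differed by less than 1.5-fold. Thus 4 of 9 members were lower and 0 higher, beside 21.4% lower and 8.08% higher among all 13389 measured genes. The members' median log2 ratio was -0.36 and that of all measured genes -0.16. With TMM or median-of-ratios scaling, which moved the median of all genes by 0.14 and 0.16, 2 members were lower, Brca2 (-0.77 and -0.75) and Rev3l (-0.63 and -0.60), while Fanca and Polh were no longer called. The split over all measured genes was 1082 higher and 2867 lower in CPM, 1566 and 1905 under TMM, and 1665 and 1783 under median-of-ratios. Fewer transcripts per cell and fewer expressing cells cannot be told apart in such sums.

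Brca2, whose product acts in homologous recombination at broken DNA (GRCm38 chromosome 5, 150522630 to 150570329, 27 exons), gave 1125 UMIs or 35.1 CPM (33.0 to 37.2) with vehicle, against 515 UMIs or 18.0 CPM (16.5 to 19.7) with cisplatin. The intervals did not overlap, and the ratio was 0.515 (0.463 to 0.572), a log2 ratio of -0.92. Only 5.39% of measured genes had a lower log2 ratio. Brca1, the ubiquitin ligase subunit that acts upstream of BRCA2 (chromosome 11, 101488764 to 101551955), gave 15.5 CPM (14.1 to 16.9) with vehicle, against 11.5 CPM (10.3 to 12.8) with cisplatin. Its ratio of 0.743 (0.645 to 0.856) lay short of the 1.5-fold limit, although its intervals did not overlap either.

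Of the Fanconi members only Fanca was called lower in CPM, a call that was lost under TMM and median-of-ratios scaling. Fanca (chromosome 8, 123268300 to 123318576) had 203 vehicle UMIs, or 6.33 CPM (5.49 to 7.26), against 114 cisplatin UMIs, or 3.99 CPM (3.29 to 4.80), a ratio of 0.631 (0.497 to 0.798). Fancd2 (chromosome 6, 113531682 to 113597017) had 187 vehicle UMIs, or 5.83 CPM (5.02 to 6.73), against 204 cisplatin UMIs, or 7.15 CPM (6.20 to 8.20), with a ratio of 1.23 whose lower limit was 1.00. Its partner Fanci (chromosome 7, 79391929 to 79450264) had 98 vehicle UMIs, or 3.05 CPM (2.48 to 3.72), against 79 cisplatin UMIs, or 2.77 CPM (2.19 to 3.45). The Fanci ratio was 0.906 (0.665 to 1.23), an interval that overlaps that of the Fanca ratio, so these 2 genes were not set apart. The Fancd2 and Fanci intervals overlapped between libraries, and the Fanca intervals did not. With every barcode thinned to 3000 UMIs the log2 ratio of Fancd2 was -0.06 against 0.25 unthinned, so its direction was not fixed.

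The excision repair members differed between the libraries by less than 1.5-fold. Ercc1 (chromosome 7, 19344778 to 19356524) measured 22.4 CPM (20.8 to 24.1) with vehicle against 24.0 CPM (22.3 to 25.9) with cisplatin, a ratio of 1.07 (0.966 to 1.19). Xpa (chromosome 4, 46155347 to 46196311) measured 41.3 CPM (39.1 to 43.5) with vehicle against 33.1 CPM (31.0 to 35.3) with cisplatin, a ratio of 0.802 (0.737 to 0.873). Ercc1 intervals overlapped, and Xpa was lower in cisplatin by more than counting error.

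Among translesion members, Rev3l (chromosome 10, 39732118 to 39875211) gave 1766 UMIs or 55.0 CPM (52.5 to 57.7) with vehicle, against 905 UMIs or 31.7 CPM (29.7 to 33.8) with cisplatin. Its ratio of 0.576 (0.531 to 0.624) placed it above 9.27% of measured genes. Polh (chromosome 17, 46171355 to 46202645) rested on 61 vehicle UMIs, or 1.90 CPM (1.45 to 2.44), and 36 cisplatin UMIs, or 1.26 CPM (0.883 to 1.75). Its ratio of 0.663 (0.427 to 1.02) passed the 1.5-fold limit, but its interval included 1 and the libraries' intervals overlapped.

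**Figure D1:**
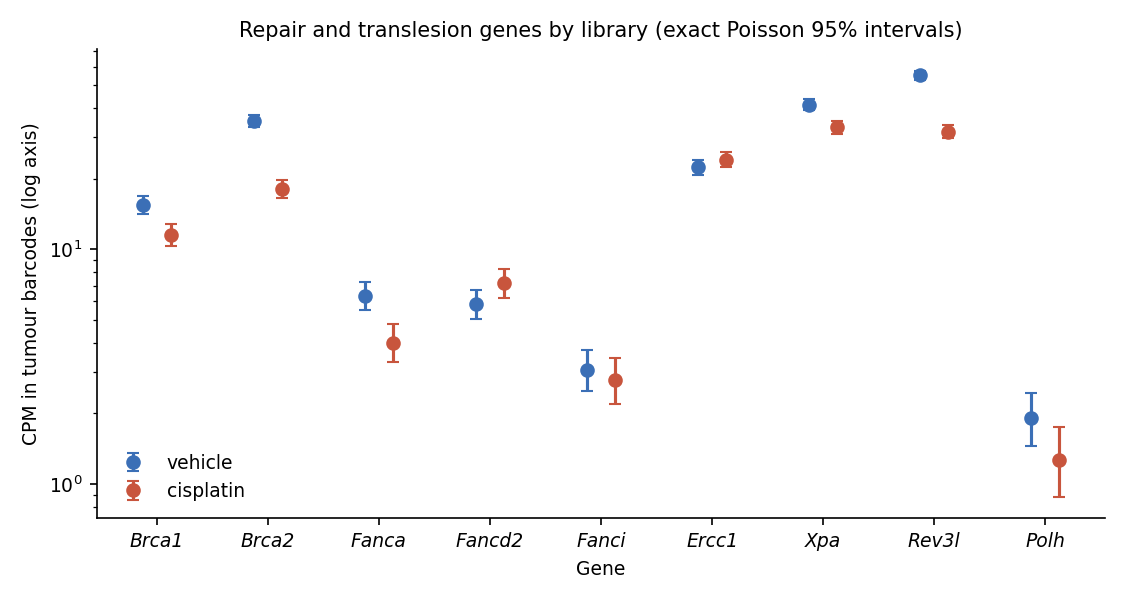
CPM on a log axis for the 9 genes in the vehicle (blue) and cisplatin (red) library; points are levels over all tumour barcodes of a library and bars are exact Poisson 95% intervals. Brca2 stands at 35.1 against 18.0 CPM and Rev3l at 55.0 against 31.7 CPM, while the bars of Ercc1, Fancd2, Fanci and Polh overlap.

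Leaving out the delta-like barcodes kept Brca2, Rev3l and Fanca lower. Without them 3 members were lower and 0 higher, beside 20.6% and 5.42% of measured genes, and the log2 ratios were -0.88 for Brca2, -0.72 for Rev3l and -0.67 for Fanca. Polh, at 1.88 and 1.30 CPM, was the member no longer called. Within the cisplatin library, 0 of 8 measured members differed by 1.5-fold between the 816 delta-like and the 3396 other barcodes, where 12.1% of measured genes were higher and 17.3% lower in the delta-like ones. Fanca was at 5.15 CPM (3.61 to 7.13) in delta-like barcodes and 3.62 CPM (2.86 to 4.52) in the others. Rev3l was at 27.7 CPM (24.0 to 31.9) and 33.0 CPM (30.6 to 35.5).

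Several members share exon sequence with a gene on the opposite strand, and whether counting used strand is not given in the sources used here. Fanca shares 920 exon bases with Zfp276 (5.24 and 2.98 CPM in vehicle and cisplatin), and Fanci shares 921 with the mitochondrial polymerase gene Polg (37.1 and 26.3 CPM). Ercc1 shares 106 with Cd3eap (801 and 487 UMIs) and Xpa 77 with Ncbp1 (38.9 and 29.3 CPM). Without strand, reads from such pairs cannot be told apart. Fancd2 shares 257 bases with Fancd2os, which had 0 and 1 UMIs.

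Cell cycle state was called for barcodes of at least 3000 UMIs, each thinned to 3000. A barcode with at least 2 UMIs over 10 mitotic genes, such as Top2a and Plk1, was called mitotic, a range that can reach back into late replication. The others were split at 4 UMIs, their median, over 25 replication genes such as Mcm5 and Pcna, into replication-high and replication-low. Summed over those 25 genes, mitotic barcodes held 3324 CPM in vehicle and 3501 CPM in cisplatin. Replication-high barcodes held 2853 and 2840 CPM, and replication-low ones 934 and 834 CPM. Mitotic barcodes were thus also the highest in replication transcripts, and a level highest in them is not placed in mitosis itself. No member is in either list, and these states are ranges of a score, not cell types. Mitotic barcodes made up 40.3% of vehicle (1414 of 3508; 38.7 to 42.0%, exact Clopper-Pearson) and 43.9% of cisplatin (1691 of 3851; 42.3 to 45.5%). Replication-high barcodes were 36.9% and 32.1%, and replication-low 22.7% and 23.9%. Many barcodes lay near the limits: 1205 and 1241 had 1 or 2 mitotic UMIs, and 728 and 825 of the others were within 1 UMI of the split. Median depth also rose with state, from 7354 UMIs in replication-low to 9822 in mitotic vehicle barcodes, and from 5058 to 7768 in cisplatin; its part in the levels was not tested.

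The members differed in how their levels ran with state. The recombination and Fanconi members were highest in mitotic barcodes and lowest, or near the lowest, in replication-low ones, whereas Ercc1 was level and Xpa ran the other way. From replication-low to mitotic, 6 of 9 members were higher and 0 lower in vehicle, beside 15.3% and 5.54% of 11897 measured genes. In cisplatin 6 of 8 measured members were higher and 0 lower, beside 15.3% and 7.59% of 11630. The members higher in both libraries were 5: Brca1, Brca2, Fanca, Fancd2 and Fanci. Polh was called higher in vehicle and was below the UMI floor in cisplatin, and Rev3l was called higher in cisplatin at a ratio of 1.53 (1.26 to 1.87). The Rev3l call was lost with the mitotic limit at 4 UMIs, with states thinned to 2000 UMIs and with the replication split at 8 UMIs, at log2 ratios of 0.41, 0.51 and 0.48 against 0.59. It was kept without delta-like barcodes, at 0.61. Polh fell below the floor in vehicle under the first of these settings and under the thinning.

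Brca1 stood at 1.66 CPM (0.797 to 3.06) in replication-low, 7.87 CPM (6.30 to 9.72) in replication-high and 27.0 CPM (24.4 to 29.8) in mitotic vehicle barcodes. In cisplatin the same 3 states gave 2.22 CPM (1.15 to 3.88), 4.76 CPM (3.38 to 6.50) and 19.3 CPM (17.1 to 21.7). Each step rose beyond counting error in vehicle. The lower step in cisplatin had overlapping intervals, but its ratio was 2.14 (1.10 to 4.49), an interval above 1. The mitotic over replication-low ratio was 16.2 (8.74 to 34.1) in vehicle and 8.68 (4.89 to 17.0) in cisplatin.

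Brca2 was already raised in replication-high barcodes. It was at 8.97 CPM (6.74 to 11.7), 30.7 CPM (27.5 to 34.1) and 49.4 CPM (45.8 to 53.1) across the same order of states in vehicle. In cisplatin it was at 3.89 CPM (2.41 to 5.94), 14.5 CPM (12.0 to 17.4) and 25.5 CPM (22.9 to 28.3). The intervals of neighbouring states were apart in each library. Among non-mitotic vehicle barcodes in the top of 4 bins of replication UMIs Brca2 reached 44.1 CPM (38.6 to 50.1), whose interval overlaps that of mitotic barcodes.

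Fancd2 had the largest share of its UMIs in mitotic barcodes among the 9 members, in both libraries. It was at 1.33 CPM (0.574 to 2.62) in replication-low, 1.46 CPM (0.837 to 2.38) in replication-high and 10.9 CPM (9.30 to 12.7) in mitotic vehicle barcodes. In cisplatin it was at 1.30 CPM (0.521 to 2.67), 0.854 CPM (0.343 to 1.76) and 13.2 CPM (11.4 to 15.3). Mitotic barcodes held 87.0% of its vehicle and 93.0% of its cisplatin UMIs, beside 46.5% and 50.8% of all UMIs in the states. Its difference between the non-mitotic states was not detectable at this depth.

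Fanca was at 0.665 CPM (0.181 to 1.70), 2.20 CPM (1.41 to 3.27) and 11.8 CPM (10.1 to 13.7) in vehicle, from replication-low to mitotic. In cisplatin it was at 0.370 CPM (0.0448 to 1.34), 1.83 CPM (1.02 to 3.02) and 6.83 CPM (5.53 to 8.34). Fanci was at 0.498 CPM (0.103 to 1.46), 1.28 CPM (0.701 to 2.15) and 5.36 CPM (4.24 to 6.68) in vehicle. In replication-low cisplatin barcodes Fanci had 0 UMIs of 5400489, with an exact Poisson upper limit of 0.683 CPM. A looser limit of 3 counts over the state stands at 0.556 CPM. Fanci was at 0.976 CPM (0.421 to 1.92) in replication-high and 4.91 CPM (3.82 to 6.21) in mitotic cisplatin barcodes. Its mitotic level in cisplatin was at least 7.00-fold higher than in replication-low by the exact interval of the ratio, and stood at 8.84 times that limit of 3 counts. For Fanca and Fanci the mitotic interval stood apart from both others, and the non-mitotic intervals overlapped. Ratios of replication-high over replication-low were below the UMI floor for both genes. For Fanca they were 3.31 (1.14 to 13.1) in vehicle and 4.94 (1.15 to 44.5) in cisplatin. For Fanci the ratio was 2.57 (0.718 to 14.0) in vehicle, and in cisplatin its lower limit was 1.12.

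Ercc1 kept to 21.4 CPM (17.9 to 25.5), 21.5 CPM (18.9 to 24.4) and 23.7 CPM (21.3 to 26.4) in vehicle. In cisplatin it was at 26.1 CPM (22.0 to 30.8), 26.3 CPM (22.9 to 30.1) and 22.2 CPM (19.8 to 24.8), and all of its intervals within a library overlapped. Xpa fell from 49.5 CPM (44.0 to 55.5) in replication-low through 43.8 CPM (39.9 to 47.9) to 36.3 CPM (33.3 to 39.6) in mitotic vehicle barcodes. In cisplatin it went from 41.3 CPM (36.1 to 47.1) through 36.8 CPM (32.8 to 41.2) to 27.6 CPM (24.9 to 30.5). The end states were apart beyond counting error, with ratios of 0.734 (0.636 to 0.849) and 0.669 (0.566 to 0.792), both short of 1.5-fold.

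Rev3l varied by less than 1.5-fold by state in vehicle, at 49.7 CPM (44.2 to 55.6), 53.1 CPM (48.9 to 57.6) and 58.7 CPM (54.8 to 62.7). In cisplatin it was at 23.9 CPM (19.9 to 28.4), 28.2 CPM (24.7 to 32.0) and 36.6 CPM (33.5 to 39.9), with the mitotic interval above both others. Polh was at 0.997 CPM (0.366 to 2.17), 1.01 CPM (0.503 to 1.80) and 2.98 CPM (2.17 to 4.01) in vehicle. In cisplatin it had 4, 1 and 30 UMIs in the same order, too few to place the non-mitotic states.

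**Figure D2:**
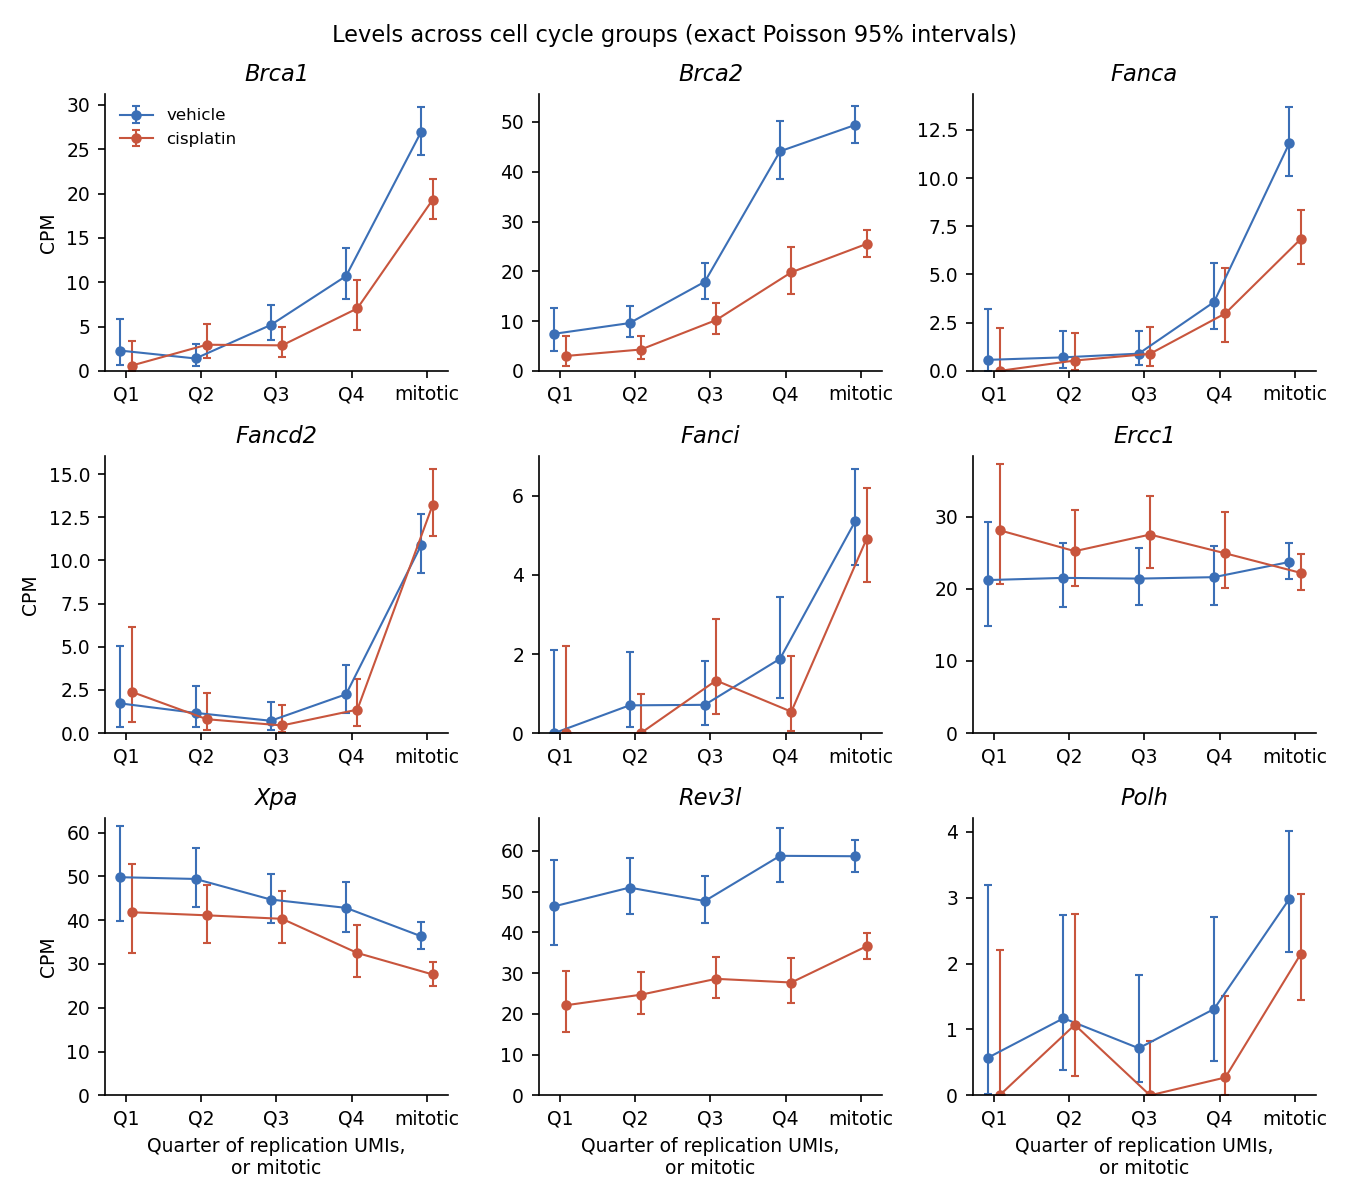
CPM of each gene in 5 groups of barcodes per library: bins Q1 to Q4 of replication UMIs among non-mitotic barcodes, then mitotic barcodes; vehicle is blue, cisplatin red, and bars are exact Poisson 95% intervals. Brca2 climbs from 7.45 to 49.4 CPM in vehicle and from 2.99 to 25.5 CPM in cisplatin, Fancd2 rises at the mitotic group, and Xpa declines.

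From replication-low to replication-high, only Brca1 and Brca2 of the 5 measured members were higher in each library, beside 6.39% of measured genes in vehicle and 6.22% in cisplatin. None was lower, beside 1.55% and 1.80%. The Brca2 ratio was 3.42 (2.56 to 4.65) in vehicle and 3.73 (2.33 to 6.25) in cisplatin. Brca1 fell below the UMI floor in cisplatin once delta-like barcodes were left out. From replication-high to mitotic, 6 of 9 members were higher in vehicle and 5 of 8 in cisplatin, beside 8.67% and 9.28%, and 0 were lower, beside 3.39% and 4.86%. The Fancd2 ratio in that step was 7.45 (4.45 to 13.4) and 15.5 (7.38 to 39.1), against 1.61 (1.41 to 1.84) and 1.76 (1.42 to 2.18) for Brca2.

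Comparing like states between libraries left the lower Brca2 and Rev3l in place. In mitotic barcodes 3 of 9 members were lower in cisplatin and 0 higher, beside 21.7% and 7.01% of measured genes. In replication-high barcodes 3 of 5 measured members were lower and 0 higher, beside 23.2% and 7.42%, and in replication-low barcodes 2 of 4 were lower and 0 higher, beside 20.3% and 6.38%. Brca2 had ratios of 0.516 (0.453 to 0.586) in mitotic, 0.473 (0.381 to 0.585) in replication-high and 0.433 (0.249 to 0.730) in replication-low barcodes. Rev3l had ratios of 0.624 (0.558 to 0.696), 0.531 (0.453 to 0.619) and 0.481 (0.388 to 0.593). Fanca was lower in mitotic barcodes, at 0.579 (0.447 to 0.747), and Brca1 in replication-high ones, at 0.604 (0.403 to 0.892). With the mitotic limit raised to 4 UMIs, Brca1 and Polh were also called lower in mitotic barcodes, at log2 ratios of -0.61 and -0.47. The share of all genes lower under that limit is not given here, so the larger count has no background beside it. Fancd2 in mitotic barcodes had a ratio of 1.21 (0.976 to 1.51), Fanci 0.917 (0.654 to 1.28) and Ercc1 0.936 (0.801 to 1.09).

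Transcript length ran with the library difference across all genes. The measured genes were put in 10 equal groups by their longest annotated transcript (GENCODE M21). The median log2 ratio went from 0.13 in the shortest group (183 to 1279 bases) to -0.46 in the longest (6759 bases and more). The share at least 1.5-fold lower in cisplatin went from 10.1% to 42.9%. The same fall was present inside each state, from 0.13 to -0.47 in mitotic, 0.17 to -0.52 in replication-high and 0.17 to -0.45 in replication-low barcodes. From replication-low to mitotic the medians ran the other way and over a narrower range, from -0.07 to 0.09 in vehicle and from -0.10 to 0.10 in cisplatin.

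The members span this range of lengths. Rev3l, at 10789 bases, and Brca2, at 10724, are in the longest group. Brca1 (6572 bases) and Fancd2 (5512) come in the group below it, Fanci (4645) and Fanca (4485) in the next, and Polh has 3238. Ercc1 (1375) and Xpa (1241) are among the shortest, beside a median of 3292 over measured genes. Set against genes of their own length group, Brca2 differed from the group median by -0.46 log2 units, with 13.5% of the group lower still, and Rev3l by -0.32, with 22.9% lower. Brca1, at -0.01 from its group median, was typical of its length. Xpa differed from the median of the shortest group by -0.44, and Fancd2 from that of its own by 0.65, with 91.2% of the group lower. Once the smoothed trend on length was removed, 0 members were lower and 1, Fancd2, was higher, beside 11.4% and 11.2% of genes with a length. The remaining log2 differences were -0.39 for Brca2, -0.37 for Xpa, -0.24 for Rev3l and 0.61 for Fancd2. The Fancd2 value comes from unthinned barcodes. Its log2 ratio before trend removal was -0.06 in barcodes thinned to 3000 UMIs, and the trend was not removed from thinned counts.

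**Figure D3:**
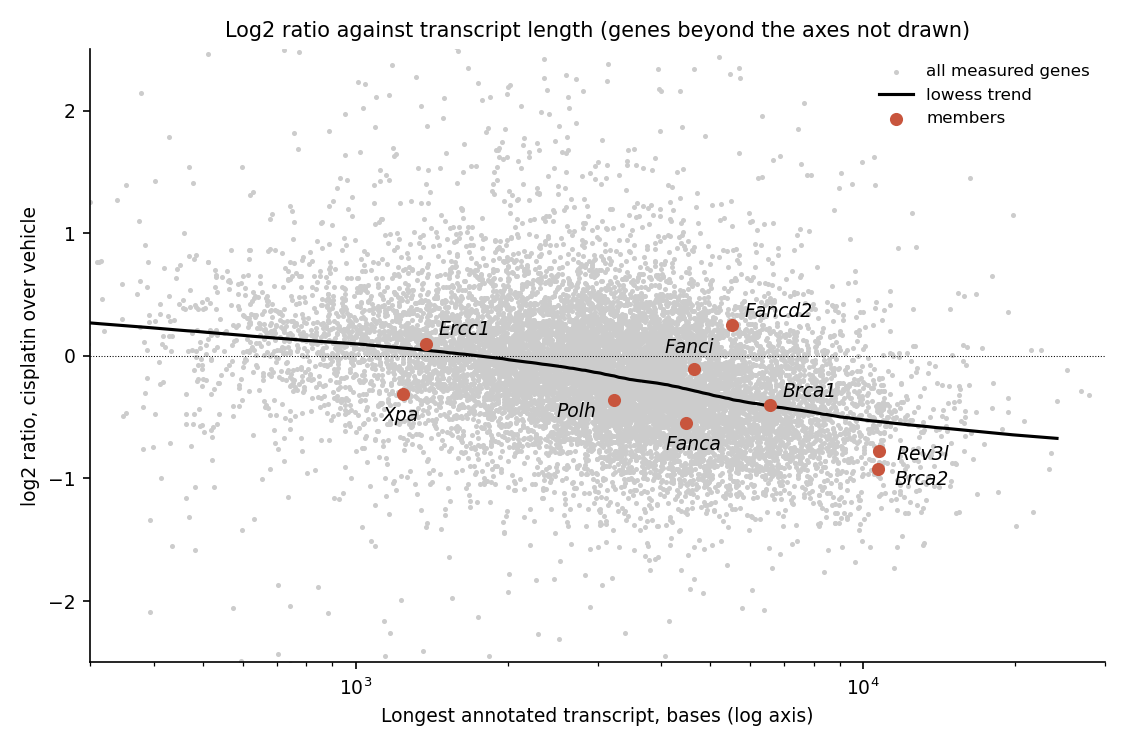
Log2 ratio of cisplatin over vehicle against the longest annotated transcript in bases (log axis) for measured genes (grey), with the lowess trend (black line) and the 9 genes in red. Brca2 (-0.92) and Rev3l (-0.78) are at the long end, below the line, and Fancd2 (0.25) is above it.

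Genes of the same pathways were taken from 5 lists with 89 genes in all, the members included. Of these 87 were measured, with 2 higher and 23 lower, beside 8.08% and 21.4% of all measured genes. Without the members the lists held 80 genes, 78 of them measured, of which 2 were higher and 19 lower. Counts and medians per list include the members. Of 17 Fanconi genes 1 was higher and 4 lower, with a median log2 ratio of -0.11. Among 19 measured homologous recombination genes 1 was higher and 6 lower (median -0.28). Of 20 nucleotide excision genes 0 were higher and 2 lower (-0.14), and of 15 measured translesion genes 0 were higher and 6 lower (-0.36). The 16 checkpoint genes had 0 higher and 5 lower (-0.14). The median over all measured genes was -0.16. With the length trend removed the higher and lower counts over all lists were 7 and 7, beside 11.2% and 11.4% of all genes with a length.

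The highest genes of the Fanconi and recombination lists were partners of members. Ube2t, the ubiquitin-conjugating enzyme for FANCD2 and FANCI, went from 84.1 CPM with vehicle to 138 CPM with cisplatin, a ratio of 1.64 (1.56 to 1.72). Bard1, the obligate partner of BRCA1, went from 13.3 to 23.6 CPM, a ratio of 1.77 (1.57 to 2.01), while Brca1 itself had a ratio of 0.743. In mitotic barcodes Bard1 was at 23.5 and 42.3 CPM and Ube2t at 151 and 236 CPM. In replication-high barcodes Bard1 was at 6.23 and 6.46 CPM and Ube2t at 34.3 and 50.6 CPM, both differing by less than 1.5-fold. In replication-low barcodes Bard1 was below the UMI floor, and Ube2t was higher in cisplatin, at 14.8 and 26.3 CPM.

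The other genes named in each list by size of change were mostly lower. Fancm, the translocase that anchors the core complex, was at 15.6 and 8.09 CPM, the nuclease gene Fan1 at 8.32 and 4.73 CPM and the core subunit gene Faap100 at 30.0 and 18.3 CPM. Xrcc3, also of homologous recombination, was at 15.4 and 7.36 CPM, and Dna2, a nuclease that resects broken ends, at 34.6 and 17.8 CPM. In excision repair Ercc3, a helicase of TFIIH, was at 11.7 and 6.80 CPM and Ercc6, the transcription-coupled repair factor CSB, at 6.89 and 4.59 CPM.

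Rev1, the scaffold polymerase that works with REV3L, had a ratio of 0.580 (0.534 to 0.630), close to that of Rev3l, with a transcript of 4262 bases. Wdr48, which activates the USP1 deubiquitinase, was at 30.0 and 18.8 CPM, and Shprh, a ubiquitin ligase for PCNA, at 21.6 and 13.1 CPM. At the checkpoint, Rnf168, a ubiquitin ligase at broken DNA, was at 49.5 and 21.8 CPM, and Rif1, which limits end resection, at 106 and 52.1 CPM. Hus1, of the checkpoint clamp, was at 13.2 and 6.76 CPM, and Atrip, the partner of ATR, had 47 and 14 UMIs. Gtf2h1, a TFIIH subunit gene (42.2 and 31.2 CPM), and Uvssa, of transcription-coupled repair (27.8 and 39.9 CPM), differed by less than 1.5-fold.

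**Figure D4:**
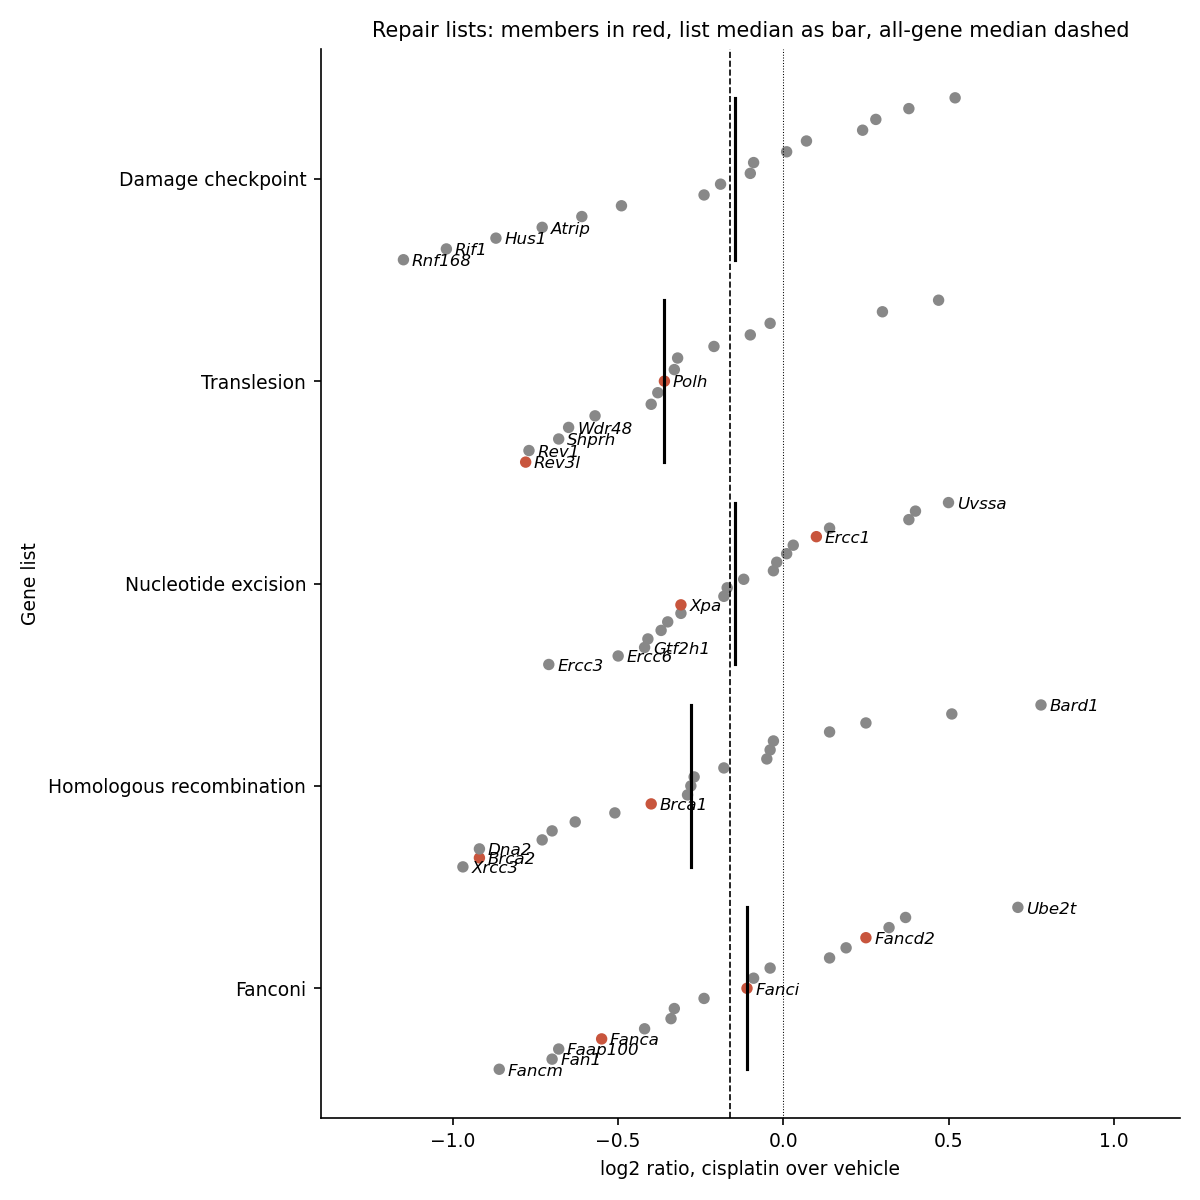
Log2 ratio of cisplatin over vehicle for each measured gene of 5 repair lists, ordered by ratio within a list; the 9 genes are red, the solid bar is the list median, the dashed line the median of all measured genes (-0.16) and the dotted line 0. Bard1 (0.78) and Ube2t (0.71) stand at the high end and Rnf168 (-1.15) at the low end.

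The lists differed in how many of their genes were higher in mitotic barcodes. From replication-low to mitotic, 15.3% of all measured genes were higher in each library, and 5.54% and 7.59% were lower. Among them, 15 of 19 homologous recombination genes were higher in vehicle and 15 in cisplatin, the same 15 genes. Of 17 Fanconi genes 11 and 10 were higher, 9 of them in both libraries. In vehicle 1 of 20 nucleotide excision genes was higher, the damage sensor Ddb2 (5.82 to 11.7 CPM), and 0 in cisplatin. Translesion genes had 5 of 15 and 5 of 14 higher, and checkpoint genes 9 of 15 and 8 of 15. Xrcc3 was lower in mitotic vehicle barcodes (20.4 to 12.6 CPM) and Fan1 in mitotic cisplatin barcodes (6.30 to 3.70 CPM).

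Patterns were last compared over 10 groups of barcodes, the mitotic group and the 4 bins of replication UMIs in each library, as Pearson correlations of log2(CPM + 1). The groups share 2 libraries and their depth, so these values only describe. Among the 5 recombination and Fanconi members the correlations ran from 0.53 (Brca2 with Fancd2) to 0.97 (Brca1 with Fanca). Xpa was negative with all 5, from -0.41 to -0.67, and Ercc1 was -0.82 with Rev3l. Of 6613 genes of at least 20 CPM on average, the most alike were Xrcc1, Spata24 and Tmpo for Brca1 (0.980, 0.979 and 0.974), and Atad2, Srsf1 and Usp1 for Brca2 (0.981, 0.981 and 0.979). Spata24 was nearest to Fanca (0.991), Ing3 to Fancd2 (0.974) and Rhno1 to Fanci (0.977). Tmem192 was nearest to Ercc1 (0.975), Pnmal2 to Xpa (0.983), Nedd4 to Rev3l (0.991) and Sf3a1 to Polh (0.962). These genes were picked as the highest of 6613 over only 10 groups, so high values follow from the choice itself. Fanci and Polh also had 0 UMIs in some groups.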

How the data were processed

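The authors deposited whole-number UMI counts for each gene in each barcode, which per the file headers were not scaled. The submitters' processing notes list Cell Ranger 2.0.2 and the mm10 build (GRCm38), with no step assigned to either. The genes, lists, markers and tests were chosen with earlier results of these data known, and 1 item of the design is not reported here. Barcodes with under 500 genes or over 10% mitochondrial UMIs were removed (54 vehicle, 36 cisplatin), and so were those (19 and 6) that held 3 or more markers of a non-tumour lineage, counting markers seen in under 2% of barcodes. No doublet caller was run. Delta-like barcodes had UMIs of at least 3 of 6 markers. Counts were summed per library or state, scaled to CPM, and called at 1.5-fold with at least 50 UMIs over both groups. Ratio intervals are exact conditional binomial; all intervals cover counting error only.

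States used thinning to 3000 UMIs (seed 1), which left out 145 vehicle and 361 cisplatin barcodes. Lengths came from GENCODE M21, in which 28339 identifiers matched and 353 did not, with a lowess trend (fraction 0.3). Genes outside the 9 were named as the 4 largest absolute log2 ratios per list and the 3 most correlated genes per member; Ddb2 was chosen after its value was seen. Python 3.11.15, numpy 2.4.6, scipy 1.17.1, pandas 2.3.3, statsmodels 0.14.6 and matplotlib 3.10.9 were used, with edgeR 4.0.16 (TMM) and DESeq2 1.42.0 (size factors) in R 4.3.3 for other scalings. In a test on simulated data for the library comparison, 97.5% of 200 genes changed 2-fold among 13386 were called, and 0.758% of unchanged genes. For mitotic over replication-low in cisplatin, 95.5% of 200 such genes among 11611 were called, and 2.00% of unchanged genes. Variation between libraries could not be measured with 1 library per group, so these shares are not error rates for the library comparison. The alternatives covered scaling, pseudocount, UMI floor, fold, barcode filters, depth, length and the limits of the states.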

Additional observations from a re-analysis of the deposited data

How the results depend on the processing

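No paired analysis was possible because each group had 1 library. The scalings moved the median log2 ratio of all genes by 0.14 (TMM) and 0.16 (median-of-ratios). Members lower in cisplatin numbered 4 in CPM, 2 under each of these scalings, and 0 at a 2-fold limit. Of all 13389 measured genes, 2867 were lower in CPM, 1905 under TMM, 1783 under median-of-ratios and 934 at the 2-fold limit. After removal of the length trend, members lower numbered 0 and members higher 1, beside 11.4% and 11.2% of genes with a length. For the lists, the counts that moved by over 1.5 times under TMM were 2 Fanconi lower, 2 recombination higher, 1 excision lower and 1 higher, 2 translesion lower and 1 higher, and 1 checkpoint higher. Median-of-ratios gave the same counts for these, with 2 Fanconi higher as well. Without the delta-like barcodes 2 recombination genes were higher, 3 translesion lower and 1 checkpoint higher. With the length trend removed there were 1 Fanconi lower and 2 higher, 2 recombination lower and 2 higher, 1 excision lower and 1 higher, 0 translesion lower, and 3 checkpoint lower and 2 higher. For the states, 1 member (Xpa) was lower in mitotic than in replication-low cisplatin barcodes with the mitotic limit at 4 UMIs, with states thinned to 2000 UMIs, and without delta-like barcodes, against 0. Members lower in cisplatin among mitotic barcodes numbered 5 with the limit at 4, against 3. Members higher in replication-high than replication-low cisplatin barcodes numbered 1 without delta-like barcodes, against 2. Shares of all measured genes under these state settings are not given here, so the shifted state counts have no background beside them. The cause of these shifts was not tested beyond what each setting changes. The other 85 counts stayed within 1.5 times. The 4 members called lower at 1.5-fold in CPM had negative log2 ratios under each setting of the library comparison, whereas Fancd2 ran from -0.06 (thinned) to 0.61 (length trend removed) and Brca1 reached 0.01 with the length trend removed. Members under 10 CPM (Fanca, Fancd2, Fanci, Polh) had too few UMIs for most steps among non-mitotic states to be detectable at this depth.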
